A study of Mus musculus with 4 samples.

Results

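The guanylate-binding proteins (GBPs) were followed as a family of 8 named genes, Gbp2 to Gbp9, by taking every row of the deposited expression table that carries 1 of these names. The 8 names gave 9 of the 34745 rows, because Gbp6 is listed under 2 gene identifiers. The row ENSMUSG00000079362 is named Gm43302 by GENCODE M21, and it is called Gm43302 from here on to keep it apart from Gbp6, ENSMUSG00000104713.

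The RNA came from bone marrow-derived macrophages (BMMs) of 8-week-old male C57BL/6 wild type mice, cells that become osteoclasts when they receive the cytokine RANKL. All cells were kept without serum for 12 h and then given RANKL at 100 ng/mL for 24 h. Dimethyl itaconate (DI), a cell-permeable ester of the macrophage metabolite itaconate, was added in the RANKL+DI group, and DMSO vehicle in the RANKL+Veh group. The dose of DI is 20 μM in the study's text and 20 mM in its labels. Each group held 2 libraries, and nothing in the labels says whether they came from separate mice or cultures. P-values therefore measure only the spread between these samples, which may be technical.

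GBPs are large GTPases of the dynamin superfamily, and most of them are switched on by interferons, above all interferon-γ, through JAK kinases and transcription factors such as IRF1. In infected macrophages they assemble on vacuoles that hold parasites or bacteria and on the surface of bacteria in the cytosol, and they help inflammasomes to detect bacterial products. Some members, Gbp2 and Gbp5 among them, carry a prenyl group that anchors them to membranes. Mouse Gbp genes lie in 2 clusters. Of the 9 rows, Gbp5, Gbp7, Gbp3 and Gbp2 lie in this order on the plus strand of chromosome 3, and Gbp8, Gbp9, Gbp4, Gm43302 and Gbp6 on the minus strand of chromosome 5 (build GRCm38).

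The 4 chromosome 3 rows of the family, Gbp2, Gbp3, Gbp5 and Gbp7, each fell with DI, so the stretches before their start sites are shown with the letters of 2 interferon elements. Sequences are from RefSeq (GRCm38.p6, plus strand, 5′ to 3′) and begin 250 bases before the RefSeq start. Each ends at that start or, for Gbp2 and Gbp5, earlier, after 30 bases that GENCODE places in an exon of the gene. The stretch of Gbp3 holds 18 such bases. For Gbp5, the GENCODE gene begins before the stretch shown. Capitals mark matches on either strand to the core of the interferon-stimulated response element (ISRE), GAAANNGAA or TTCNNTTTC, and to the gamma-activated site (GAS), TTCNNNGAA. The regions are chr3:142620413-142620631 for Gbp2, chr3:142559794-142560043 for Gbp3, chr3:142496684-142496929 for Gbp5 and chr3:142530086-142530335 for Gbp7.
Gbp2: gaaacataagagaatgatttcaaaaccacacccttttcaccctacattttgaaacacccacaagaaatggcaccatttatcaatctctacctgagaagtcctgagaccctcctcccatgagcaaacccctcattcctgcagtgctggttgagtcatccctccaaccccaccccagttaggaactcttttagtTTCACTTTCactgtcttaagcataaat
Gbp3: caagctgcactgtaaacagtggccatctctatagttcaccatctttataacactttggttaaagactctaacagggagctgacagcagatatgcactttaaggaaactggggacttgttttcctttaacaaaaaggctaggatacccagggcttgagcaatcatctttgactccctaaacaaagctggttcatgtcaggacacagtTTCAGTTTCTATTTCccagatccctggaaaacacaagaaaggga
Gbp5: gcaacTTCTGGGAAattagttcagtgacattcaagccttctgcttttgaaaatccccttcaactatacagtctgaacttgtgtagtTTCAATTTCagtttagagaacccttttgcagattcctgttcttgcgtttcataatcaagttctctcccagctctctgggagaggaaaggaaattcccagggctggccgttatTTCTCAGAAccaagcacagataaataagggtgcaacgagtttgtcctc
Gbp7: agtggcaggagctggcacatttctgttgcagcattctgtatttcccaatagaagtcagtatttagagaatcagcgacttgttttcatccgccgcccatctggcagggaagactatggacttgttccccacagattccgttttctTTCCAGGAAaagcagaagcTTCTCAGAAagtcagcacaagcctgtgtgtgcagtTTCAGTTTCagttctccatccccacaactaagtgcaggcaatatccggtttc

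Positions are those of the first base of a match, with −1 just before the start. Gbp2 held 1 ISRE core, at −58, and no GAS. This core is before the RefSeq start but inside the bases that GENCODE places in an exon of Gbp2. In Gbp3 there were 2 overlapping ISRE cores, at −44 and −38, again without a GAS, and a second RefSeq window of Gbp3 held neither. The window of Gbp5 had an ISRE core at −164 and GAS matches at −245 and −52. Gbp7 had an ISRE core at −52 and GAS matches at −106 and −87. Among 32851 RefSeq windows running from 250 bases before to 50 after a start, 8.56% held an ISRE core, 8.3% a GAS and 1.07% both. Gbp2b, which lies between Gbp3 and Gbp2 and had no counts in any library, also held an ISRE core, at −136. A match is a run of letters and not a measured binding site. Promoters of the chromosome 5 genes were not analysed here.

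BMMs given DI contained less Gbp mRNA. Gbp2, Gbp3, Gbp5, Gbp7 and Gbp9 fell, by between 2.01-fold for Gbp9 and 5.57-fold for Gbp5, and these calls held with any of the 4 libraries left out. Gbp4 fell to the floor of the assay, a call that was lost without some of the libraries, while Gbp6, Gbp8 and Gm43302 did not pass the test as separate rows. When the test was against a log2 fold change of 1 rather than 0 (glmTreat), 0 of the 9 rows were called. Genes were called at an edgeR adjusted p under 0.05 over 12590 tested genes. In all, 6 of 9 rows were called lower with DI, where the background of genes called lower was 7.7%. All 9 rows passed the filter on low counts, but Gbp4 and Gm43302 passed it only through the vehicle libraries, where they were higher. Among the other 7 rows 5 were called lower, with a median log2 fold change of −1.03, and the median of all tested genes was 0.00. Called rows with a log2 fold change below −1 numbered 6 of 9, Gbp4 among them, against a background of 0.85%. The 5 rows called among the other 7 were all below −1. Gbp2 and Gbp9 passed this cut only narrowly, at −1.03 ± 0.10 and −1.01 ± 0.15 (SE). In these bulk libraries, fewer cells expressing a gene and less RNA per cell cannot be told apart.

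**Figure D1:**
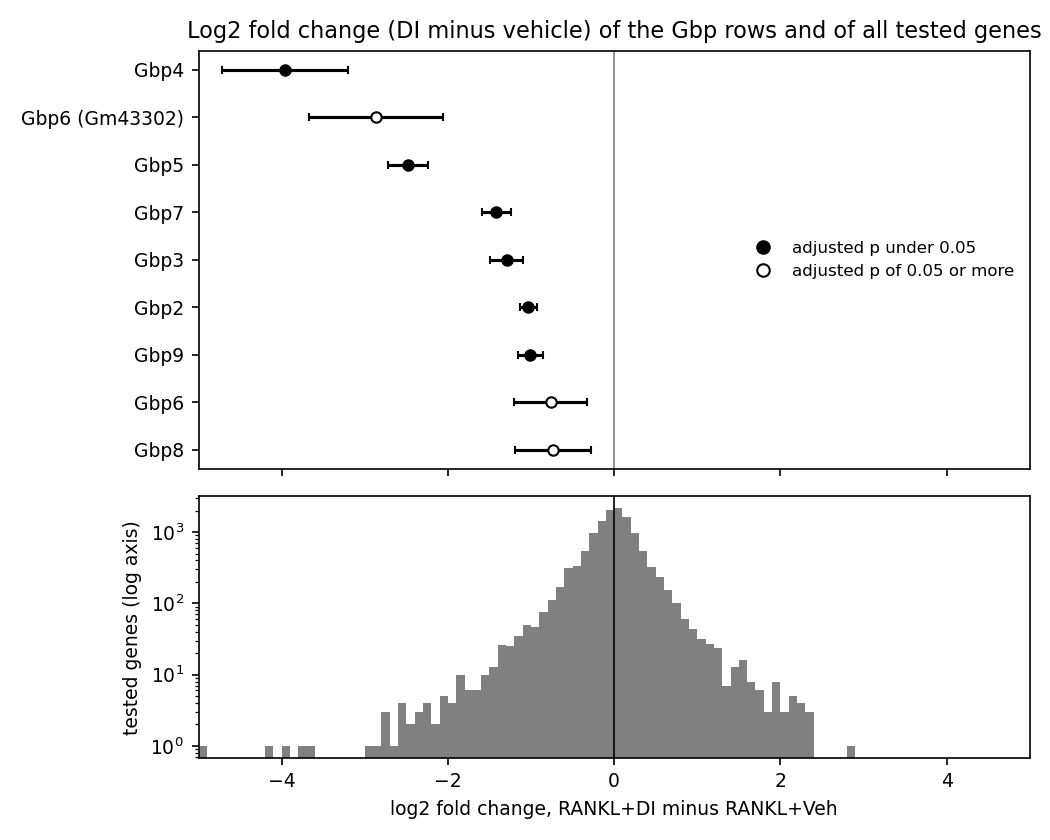
Top, log2 fold change (RANKL+DI minus RANKL+Veh) of each Gbp row, with bars of 1 standard error and filled points for an edgeR adjusted p under 0.05, and bottom, the same quantity for all 12590 tested genes in bins of 0.1 log2 units (values past 5 in either direction counted in the end bins), with a log axis. The Gbp rows lie between −0.74 and −3.96, the latter a fitted value for Gbp4 and no bound, while the median of all genes is 0.00.

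The libraries held between 16085692 and 19403480 counts, and the floor of 3 counts was worth 0.160 to 0.180 CPM (counts scaled to a common library total). Macrophage genes were abundant, with Csf1r, the receptor of M-CSF, at 1388 ± 29.4 CPM with DI and 1312 ± 41.4 CPM with vehicle (SD, n = 2). The 7 rows of 6 macrophage markers summed to 5803 and 5580 CPM with DI and to 4902 and 4717 CPM with vehicle. Of these rows 4 were called higher and 1 lower, where the backgrounds over all tested genes were 7.14% and 7.7%. Osteoclast markers summed to 690 and 678 CPM with DI and 738 and 714 CPM with vehicle. Of 7 tested, 5 were called lower and 1 higher, and Calcr had 0 counts. Atp6v0d2, the 1 called higher, made up most of these sums, at 509 CPM with DI and 422 CPM with vehicle (means, n = 2). The sums therefore say little about the 5 called lower, such as Mmp9 at 28.5 CPM with DI and 88.5 CPM with vehicle. Markers of T and NK cells, which make interferon-γ, summed to between 1.97 and 3.0 CPM, with Cd3e and 7 others of 11 at 0. Most of this was Cd4, at 1.34 CPM with DI and 2.35 CPM with vehicle (means, n = 2). B cell markers reached 0.116 to 0.600 CPM (Pax5 at 0), dendritic cell markers 0.600 to 0.873 CPM (Siglech and Cd209a at 0), neutrophil markers 7.24 to 9.90 CPM (Ly6g at 0) and stromal markers 41.3 to 51.3 CPM, with none called in these lists, where no B cell or dendritic cell marker passed the filter. The part of these markers in the Gbp values was not tested.

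Gbp2 was the most abundant member per length. This prenylated GBP, ENSMUSG00000028270 at chr3:142620602-142638008, is recruited to vacuoles of Toxoplasma. It had 154 and 176 counts under DI against 348 and 314 under vehicle, or 9.17 ± 0.293 against 18.8 ± 0.120 CPM (SD, n = 2). Replicates lay close together and the groups were far apart. Gbp2 fell by 1.03 ± 0.10 on the log2 scale (SE, edgeR adjusted p = 0.00281), and with each library left out in turn the log2 fold change ran from −1.06 to −1.0.

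Gbp5 had the largest fall among the members with counts above the floor in all libraries. This GBP promotes assembly of the NLRP3 inflammasome and lies at chr3:142493978-142522344 (ENSMUSG00000105504). There were 13 and 15 counts under DI against 76 and 78 under vehicle. The levels were 0.778 ± 0.0301 CPM with DI and 4.38 ± 0.426 CPM with vehicle (SD, n = 2), so that the SDs were small beside the gap between the groups. The log2 fold change was −2.48 ± 0.24 (SE, edgeR adjusted p = 0.00284), which put Gbp5 at rank 17 of the 12590 tested genes from the lowest value.

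Gbp7, which takes part in assembly of the phagocyte NADPH oxidase, lies at chr3:142530342-142550149 (ENSMUSG00000040253). It had 157 and 126 counts under DI against 355 and 387 under vehicle, or 7.93 ± 1.71 against 21.1 ± 2.95 CPM (SD, n = 2). Gbp7 fell by 1.42 ± 0.18 on the log2 scale (SE, edgeR adjusted p = 0.00597). Its neighbour Gbp3, ENSMUSG00000028268 at chr3:142560026-142573209, had 116 and 84 counts under DI against 255 and 229 under vehicle. The vehicle libraries of Gbp3 nearly coincided, at 13.7 ± 0.0418 CPM, whereas those with DI were spread, at 5.62 ± 1.61 CPM (SD, n = 2). Gbp3 fell by 1.29 ± 0.20 on the log2 scale (SE, edgeR adjusted p = 0.0102). Of the exon bases of Gbp7, 11.3% are shared with the gene model Gm43802 on the same strand, and its reads there cannot be assigned with certainty.

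Gbp9 had the highest counts of the family and was the chromosome 5 row with the smallest adjusted p. It lies at chr5:105077630-105139539 (ENSMUSG00000029298) and had 251 and 221 counts under DI against 540 and 400 under vehicle, or 13.2 ± 2.0 against 26.5 ± 3.52 CPM (SD, n = 2). The vehicle libraries differed from each other, but the lower of them was above both libraries with DI. Gbp9 fell by 1.01 ± 0.15 on the log2 scale (SE, edgeR adjusted p = 0.00903). None of the transcripts of Gbp2, Gbp3, Gbp5, Gbp7 and Gbp9 matched another gene at 95% identity or more over at least 20% of its length.

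**Figure D2:**
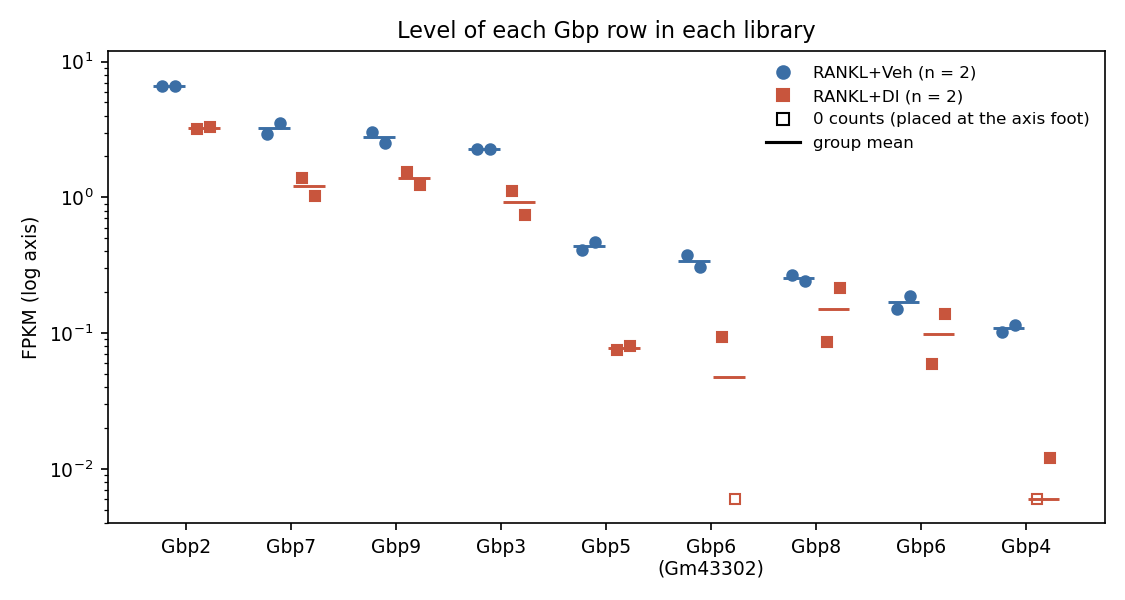
Level of each Gbp row in each library in FPKM (log axis), with RANKL+Veh as circles, RANKL+DI as squares and a line at the mean of each group (n = 2). Open squares at the foot of the axis stand for 0 counts. In all 9 rows both DI libraries lie below both vehicle libraries. For Gbp4 and Gm43302, which passed the filter on low counts only through vehicle, this was fixed in advance.

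The remaining chromosome 5 rows had few counts. Gbp4, ENSMUSG00000079363 at chr5:105115767-105139586, had 0 and 2 counts with DI and 17 in each vehicle library. The DI libraries were both under the floor of 3 counts, so Gbp4 was at least 5.77-fold lower with DI, taking the floor per library. Its edgeR adjusted p was 0.0215, and it rose to between 0.0690 and 0.0785 without RANKL+DI replicate 1 or either vehicle library and was 0.0303 without RANKL+DI replicate 2. With the replicate number as a further term of the fit (replicate block) it was 0.0503.

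Gm43302, at chr5:105214907-105293695, had 7 and 0 counts under DI against 30 and 22 under vehicle. Its log2 fold change was −2.86 ± 0.80 (SE, edgeR adjusted p = 0.0678), and the library with no counts weighed on it. Without RANKL+DI replicate 2 the log2 fold change was −1.83, and without RANKL+DI replicate 1 the adjusted p was 0.0114. Gbp6, at chr5:105270702-105293698, had 9 and 23 counts under DI against 25 and 28 under vehicle. The second DI library came close to the vehicle libraries, and the log2 fold change was −0.76 ± 0.44 (SE, edgeR adjusted p = 0.308). Gbp8, ENSMUSG00000034438 at chr5:105014150-105139540, showed the same picture with 8 and 22 counts under DI against 27 and 22 under vehicle, for a log2 fold change of −0.74 ± 0.45 (SE, edgeR adjusted p = 0.339).

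These low rows share sequence. A Gbp6 transcript was covered along 100.0% of its length by Gm43302 at 99.8% identity, and Gm43302 shares 1726 exon bases with Gbp6 on the same strand, 40.0% of its own and 29.0% of those of Gbp6. Transcripts of Gbp4 and Gbp8 matched Gbp6 at 96.2% and 95.2% identity over 80.7% and 38.8% of their lengths. How reads with several matches were counted is not given in the sources used here, so the split of counts among these rows is uncertain. In RANKL+DI replicate 1 the 7 and 9 counts of Gm43302 and Gbp6 were near each other, while in replicate 2 all 23 counts stood under Gbp6.

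Sums over linked rows do not depend on how reads were divided among the rows summed. They would change if reads with several matches were dropped or counted repeatedly. For the 2 Gbp6 rows, the division of reads with Gbp4, Gbp8 and Gbp10, which share sequence with them, also matters. The 2 Gbp6 rows together had 16 and 23 counts under DI against 55 and 50 under vehicle, a sum chosen after seeing the data. It fell by 1.45 ± 0.26 on the log2 scale (SE, edgeR adjusted p = 0.0168). All 4 rows linked by shared sequence, Gbp4, Gbp6, Gm43302 and Gbp8, had 24 and 47 counts under DI against 99 and 89 under vehicle. This sum fell by 1.43 ± 0.27 on the log2 scale (SE, edgeR adjusted p = 0.0218). Of the Gbp genes outside the 8 names, Gbp2b, Gbp10 and Gbp11 had 0 counts in each library, which allows up to 0.160 to 0.180 CPM. Gbp10 is 99.2% identical to Gm43302 over 97.8% of a transcript, and Gbp11 is 96.0% identical to Gbp8 over 81.4%. Reads of such genes cannot all be told apart, so this bound may not hold for Gbp10 and Gbp11. Gbp2b had no such match.

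In each of the 9 rows both libraries with DI were below both with vehicle, in CPM. For Gbp4 and Gm43302, which passed the filter only through the vehicle libraries, this was fixed in advance. It held for the other 7 rows as well, and for 29.6% of all tested genes. Gbp8 had 22 counts in both RANKL+DI replicate 2 and RANKL+Veh replicate 2. These were separated only by the scaling, at 1.17 and 1.32 CPM. For some members the replicates of a group differed beyond counting error. In exact binomial tests of the 2 libraries of a group, two-sided and adjusted over 18 tests, replicates differed for Gbp7 with DI (adjusted p = 0.0375) and with vehicle (adjusted p = 0.0326), for Gbp3 and Gm43302 with DI and for Gbp9 with vehicle (adjusted p = 0.0326 for each). Gbp2 and Gbp5 showed no such difference in either group, at adjusted p between 0.751 and 1 in these exact tests.

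**Figure D3:**
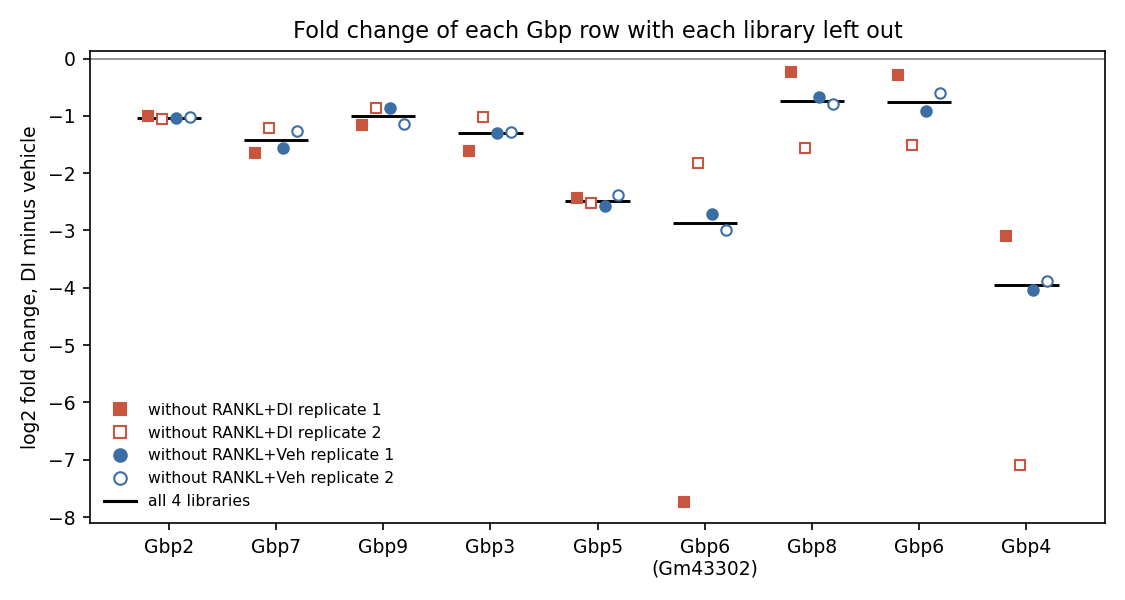
Log2 fold change (RANKL+DI minus RANKL+Veh) of each Gbp row with all 4 libraries (line) and with each library left out in turn (symbols). All values are below 0, those of Gbp2 and Gbp5 lie closest to their lines, and the values near −7 for Gbp4 and Gm43302 come from fits in which the only DI library had 0 counts and are no bounds.

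Levels of the members differed widely within the macrophages, here as FPKM, which scales fragments to gene length and library size. With vehicle, Gbp2 stood at 6.63 ± 0.0424 FPKM, Gbp7 at 3.23 ± 0.451, Gbp9 at 2.78 ± 0.369 and Gbp3 at 2.26 ± 0.00689 FPKM (SD, n = 2). Gbp7 and Gbp9 overlapped between libraries, and the other neighbours in this order did not. The low members followed, with Gbp5 at 0.438 ± 0.0426 FPKM, Gm43302 at 0.340 ± 0.0475, Gbp8 at 0.255 ± 0.0168, Gbp6 at 0.170 ± 0.0270 and Gbp4 at 0.109 ± 0.00857 FPKM, again without overlap between neighbours. With DI, Gbp2 remained first at 3.24 ± 0.103 FPKM, ahead of Gbp9 at 1.39 ± 0.211 and Gbp7 at 1.21 ± 0.262 FPKM, which again overlapped. Gbp3, at 0.926 ± 0.265 FPKM with DI, overlapped Gbp7 too. Gbp5, at 0.0779 ± 0.00301 FPKM, was below both libraries of Gbp8 with DI and above both with vehicle. The order depends on the gene length, here the effective length that follows from the deposited counts and FPKM. With the exons of GENCODE M21 instead, an alternative added after seeing the data, the vehicle order was Gbp2, Gbp9, Gbp3 and Gbp7.

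Summed over the 9 rows, the family reached 16.1 and 16.3 FPKM with vehicle and 7.53 and 6.76 FPKM with DI. The means, 16.2 ± 0.145 and 7.15 ± 0.542 FPKM (SD, n = 2), differed 2.27-fold, and the groups were well separated. Gbp2, Gbp7, Gbp9 and Gbp3 made up most of this sum in each library. The share of Gbp2 was 41.0% and 40.8% with vehicle and 42.1% and 49.0% with DI. The share of Gbp5 was 2.53% and 2.87% with vehicle and 1.01% and 1.18% with DI.

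**Figure D4:**
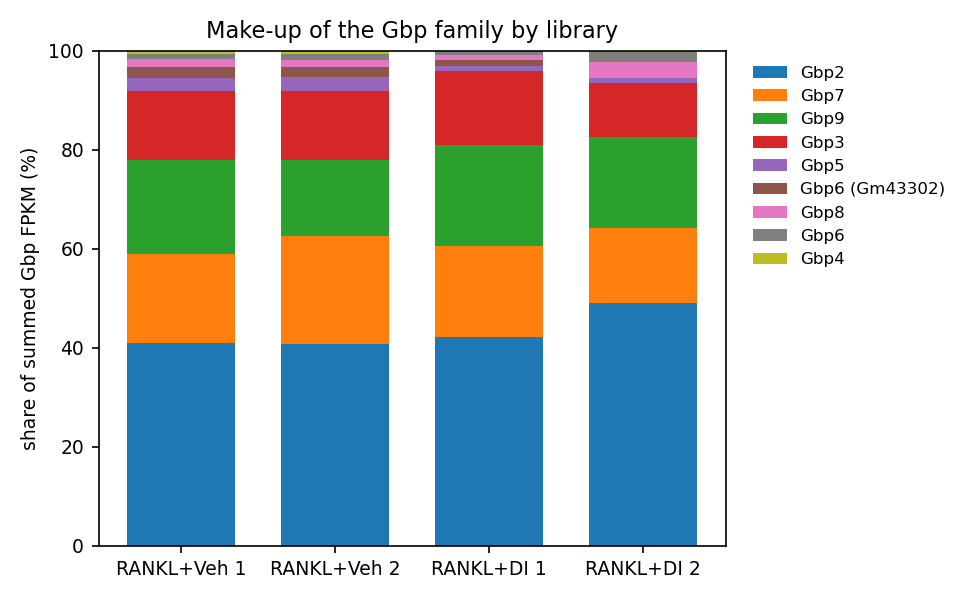
Share of each Gbp row in the summed FPKM of the family (percent, bars adding to 100) in each of the 4 libraries. Gbp2 holds 40.8% to 49.0% of the sum, and the band of Gbp5 is narrower in both DI libraries (1.01% and 1.18%) than in both vehicle libraries (2.53% and 2.87%).

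Gbp2 was then used as the reference within each library. Gbp5 counts were 8.44% and 8.52% of Gbp2 counts with DI and 21.8% and 24.8% with vehicle. For Gbp7 the ratio was 102% and 71.6% with DI and 102% and 123% with vehicle, so that a DI library all but met a vehicle library. The ratios of Gbp3, Gbp6, Gbp8 and Gbp9 overlapped between the groups, and those of Gbp4 and Gm43302, which each had a DI library at 0 counts, were not read. With 2 libraries against 2, a two-sided exact permutation test of such a ratio cannot go below p = 0.333.

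Genes of interferon signalling, which drives Gbp transcription, were compared next. Of 24 listed genes 22 were tested. Against backgrounds of 7.7% lower and 7.14% higher over all tested genes, 6 of the 22 were called lower, 1 higher and 15 not called. Their median log2 fold change was −0.03. Without RANKL+DI replicate 1 or 2 the number called higher was 2 or 3. Stat2, a transcription factor that acts on ISRE elements, fell by 0.61 ± 0.08 on the log2 scale, and Irf7, an amplifier of type I interferon responses, fell by 1.18 ± 0.11 (SE, edgeR adjusted p = 0.00618 and 0.00248). Irf8, a macrophage lineage factor, rose by 0.45 ± 0.05 (SE, edgeR adjusted p = 0.00301). Irf1, which acts on many Gbp genes, had 437 and 459 counts under DI against 551 and 488 under vehicle and did not pass (log2 fold change −0.24 ± 0.07, edgeR adjusted p = 0.0866).

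Upstream of these factors, the receptor genes Ifngr1, Ifngr2, Ifnar1 and Ifnar2 had log2 fold changes of −0.01, 0.03, −0.00 and −0.08, with standard errors of 0.05, 0.04, 0.04 and 0.05, and none was called (edgeR adjusted p between 0.322 and 0.952). Jak1 and Jak2, the kinases of the interferon-γ receptor, had values of 0.13 ± 0.04 and 0.02 ± 0.06 and were not called either. Ifng and Ifnb1 themselves had no counts in any library, which allows up to 0.160 to 0.180 CPM.

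The immunity-related GTPases, interferon-induced proteins that act with GBPs at vacuoles, were called lower in 5 of 6 tested genes, with none higher. The background of genes called lower was 7.7%. The median log2 fold change of these GTPases was −0.76. Irgm1, a regulator of the others, had 849 and 916 counts under DI against 1418 and 1286 under vehicle, and fell by 0.64 ± 0.06 on the log2 scale (SE, edgeR adjusted p = 0.00216). Irgm2, Ifi47 and Tgtp2 fell too, with log2 fold changes of −0.56 ± 0.08, −0.87 ± 0.19 and −1.50 ± 0.34 (SE, edgeR adjusted p = 0.00892, 0.0302 and 0.0368). Tgtp2 is 99.8% identical to Tgtp1 in the matched transcript, so its counts may include both. The fifth, Iigp1, named after its values were seen, had 3 and 7 counts under DI against 19 and 30 under vehicle. It passed the filter only through the vehicle libraries, and both the 5 of 6 and the median include it. The number of lower genes in this list was between 2 and 4 with a library left out, and 3 with the DESeq2 test, limma-voom or the replicate block.

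**Figure D5:**
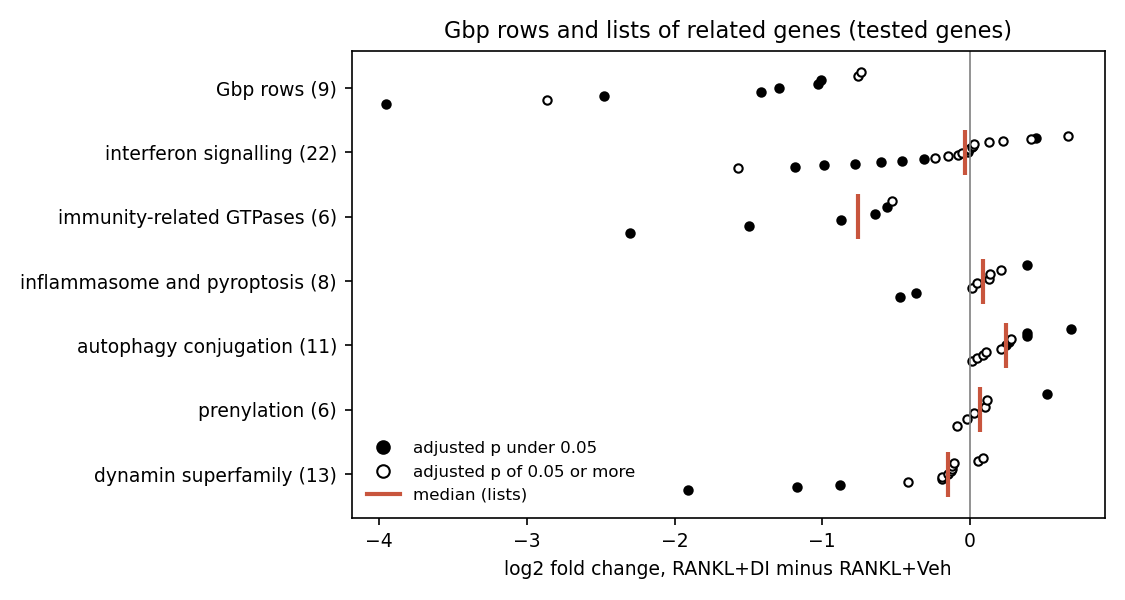
Log2 fold change (RANKL+DI minus RANKL+Veh) of the 9 Gbp rows and of the tested genes of 6 lists, with filled points for an edgeR adjusted p under 0.05 and a red line at the median of each list. The Gbp rows and the immunity-related GTPases lie wholly below 0 and the autophagy genes wholly above it, while the genes of the other lists lie on both sides.

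Lists of other genes tied to GBP function followed, to be read against backgrounds of 7.7% of tested genes called lower and 7.14% called higher. In the list of inflammasome and pyroptosis genes, 2 of 8 were called lower, 1 higher and 5 not called, with a median log2 fold change of 0.09. With any of the 4 libraries left out, 1 was called lower. Gsdmd, which forms the membrane pores of pyroptosis, fell by 0.48 ± 0.04 on the log2 scale, and Casp4, the sensor of cytosolic lipopolysaccharide, fell by 0.37 ± 0.07 (SE, edgeR adjusted p = 0.00224 and 0.0225). Ninj1, which ruptures the membrane at the end of pyroptosis, rose by 0.39 ± 0.05 (SE, edgeR adjusted p = 0.00517). In the list drawn from autophagy conjugation, which is needed to load GBPs onto vacuoles, 5 of 11 genes were called higher and 0 lower. The median of the list was 0.25, and the background of genes called higher was 7.14%. The number was 3 of 11 with any of the 4 libraries left out. The 5 called with all 4 libraries were Sqstm1, an autophagy receptor, and genes of the Map1lc3 and Gabarap families. Atg3, Atg5, Atg7, Atg12 and Atg16l1 were not called (edgeR adjusted p between 0.0742 and 0.940). Sqstm1 rose by 0.68 ± 0.06 and Gabarap by 0.26 ± 0.04 (SE, edgeR adjusted p = 0.00180 and 0.00741). Without a stated strand setting, 17.3% of the exon bases of Sqstm1 cannot be told from Mrnip on the opposite strand. Among enzymes that prenylate and process CaaX proteins, 1 of 6 was called, Icmt, with a rise of 0.52 ± 0.07 (SE, edgeR adjusted p = 0.00783), and the median was 0.07. The farnesyl and geranylgeranyl transferase genes Fnta, Fntb and Pggt1b had log2 fold changes between −0.02 and 0.12 and were not called. Of 13 other dynamin-superfamily GTPases 3 were called lower and 0 higher, with a median of −0.15, and 1 was called lower without RANKL+Veh replicate 2. These 3 were Mx1 and Mx2, both induced by interferons, and Dnm1, which cuts endocytic vesicles. Their log2 fold changes were −1.17 ± 0.16, −1.91 ± 0.32 and −0.88 ± 0.21 (SE, edgeR adjusted p = 0.00789, 0.0147 and 0.0433), with 95.3% identity between matched Mx1 and Mx2 transcripts.

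The genes outside the family whose profile over the 4 libraries was most like the median profile of the Gbp rows were Phf11b, Oasl1, Rsad2, Oasl2 and Usp18. Their root mean square distances from it were 0.0502, 0.0700, 0.0914, 0.0945 and 0.105 log2 units over 4 libraries. Oasl2 had 733 and 737 counts under DI against 1915 and 1833 under vehicle, and Rsad2 had 248 and 216 against 573 and 612. The log2 fold changes of the 5 genes lay between −1.45 for Oasl1 and −1.31 for Usp18. Gbp7, at −1.42, was within this range and Gbp3, at −1.29, next to it. The other Gbp rows lay further off, from −3.96 for Gbp4 (a fitted value) to −0.74 for Gbp8. The median profile took in all 9 rows, among them Gbp4 and Gm43302, which passed the filter only through vehicle. Phf11b shares 97.0% identity with Phf11a, so its counts may include both. Likeness was measured on the same libraries as the fold changes, and it is a description with no test.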

How the data were processed

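RNA was measured in 4 BMM libraries, grouped by their labels into RANKL+DI and RANKL+Veh. The authors deposited raw counts of paired-end reads per gene and, beside them, FPKM values. Effective gene lengths were worked out from these counts, FPKM and library totals. With them the FPKM were reproduced to within 0.000327 in relative terms. This shows only that a gene had the same length in all libraries. The other deposited table, which adds pathway annotation, was not used. The submitters' processing notes name GRCm38 and mm10, and the aligner and counter are not given in the sources used here.

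Counts were fitted in R 4.3.3 with edgeR 4.0.16 (TMM, default filter, quasi-likelihood, condition as the only term), with Benjamini-Hochberg adjustment over 12590 genes. FPKM were recomputed with TMM library sizes. DESeq2 1.42.0, limma 3.58.1 and other scalings, filters and left-out libraries were alternatives. The depth was 16085692 to 19403480 counts, and floors cover counting error only. SEs and SDs also hold the spread between libraries. The steps were tested on simulated data. Deviations of same-numbered samples were not correlated (−0.0249 over all tested genes), which does not settle whether these samples were paired. Shared sequence was found with BLAST+ 2.17.0 on GENCODE M21 transcripts (at least 95% identity over 20%).

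The members and lists were chosen with earlier results of these data known. Named were all members, Gbp2b, Gbp10 and Gbp11, up to 4 called genes of each list with the smallest p, defining genes of a list, and the 5 genes most like the members with an average log2 CPM over 1. Gm12250, 1 of 8 listed immunity-related GTPases, was not analysed here. A gene that the rule for named genes includes is left out of the text.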

Additional observations from a re-analysis of the deposited data

How the results depend on the processing

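The direction of all member results was kept under each alternative run, and of 124 member values 109 kept their side of the threshold, 10 were no longer called and 5 became called. The number of members called lower, 6, ran from 5 to 7 over other scalings (DESeq2's size factors, upper quartile, library size only), filters (none, or 10 counts in every library), tests (DESeq2, exact test, limma-voom) and summed paralogs, and was 5 to 6 with a library left out. It was 0 under glmTreat, which tests for a log2 fold change past 1, where the number of all genes called was 14 against 1868. Leaving out a library gave 1087 to 1394 called genes, with 1120 without RANKL+Veh replicate 1 and 1087 without replicate 2. Scaling by library size only moved the median of all genes to −0.10 and the split to 549 higher and 1930 lower, from 899 and 969. The log2 ratio of summed FPKM, −1.18, ran from −1.26 to −1.11 with a library left out.

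Under the replicate block 5 members and 1389 genes were called, and Gbp4 lost its call (edgeR adjusted p = 0.0503). The labels do not say whether the replicate numbers pair the samples. The block also gave 3 lower immunity-related GTPases and 3 higher autophagy genes, and moved the number of no other list by over 1.5 times.

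Interferon signalling had 2 higher genes with no filter and with the exact test, and 1 to 3 higher and 4 to 6 lower with a library left out. Immunity-related GTPases numbered 3 lower with DESeq2 and limma-voom and 2 to 4 with a library left out. Autophagy genes called higher numbered 3 with upper quartile factors, library size only, DESeq2 and each library left out. Library size only called 1 prenylation gene and 7 dynamin-superfamily genes lower. With a library left out, inflammasome genes called lower numbered 1 and dynamin-superfamily genes 1 to 2. Under glmTreat each of these lists had 0 called genes in either direction. DESeq2 gave no adjusted p for Gbp4, Gbp6, Gm43302 and Gbp8. Depth limits Gbp4, Gbp6, Gm43302 and Gbp8, which had at most 30 counts in a library.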
